A study of Saccharomyces cerevisiae with 8 samples.

Results

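The psh1 cac2 double mutant of the budding yeast Saccharomyces cerevisiae was compared with wild type (WT) while both overproduced Cse4, the variant of histone H3 that marks the centromere. The comparison rests on 4 of the 8 libraries of the series, 2 of psh1 cac2 (strain GH194) and 2 of WT (strain GH69), and on 6366 of the 7126 listed features, those with a mean of at least 1 RPKM over the 8 libraries. RPKM is the number of reads per kilobase of a feature, scaled to the size of the library. The cac2 mutant (strain GH182) and the psh1 mutant (strain GH72), also with 2 libraries each, serve below only to show where the double mutant differed from either. In all 4 genotypes, duplicate cultures grown overnight in raffinose medium were diluted to an OD600 of 0.1, kept for 2 h at 30 °C, given galactose to 4% to switch on Cse4 overexpression and grown for 10 h more. Ribosomal RNA was then removed from 1000 ng of total RNA and stranded libraries were made. The labels name the genotypes as mutants without giving the alleles, each genotype was 1 strain, and no library without galactose was analysed, so the effect of Cse4 overproduction itself was not measured.

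Psh1 is a ubiquitin ligase that recognises Cse4 and marks it for degradation, which keeps the variant away from chromosome arms. Cac2 is the middle subunit of CAF-1, the chaperone that places histones H3 and H4 on freshly replicated DNA, and CAF-1 can also deposit Cse4 when it is in excess. In yeast, CAF-1 is further known for its part in silent chromatin and in keeping nucleosomes on promoters such as those of the phosphate regulon.

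The 4 libraries held between 30767522 and 34561763 reads in listed features. Transcripts of both mutated genes were nearly absent in psh1 cac2. PSH1 stood at 28.1 and 26.9 RPKM in WT replicates 1 and 2 and at 0.0494 and 0.0243 in psh1 cac2 replicates 1 and 2, and CAC2 at 19.0 and 19.5 against 0.15 and 0.0844. Markers of mating type a were the more abundant in all 4 libraries. Of 7 a-specific genes, 6 were above 0 in the 4 libraries and BAR1 was listed at 0, with a summed level of 2286 to 2448 RPKM in WT and of 1512 to 1717 in psh1 cac2. The 5 alpha-specific genes, markers of the other mating type, summed to 63.6 to 66.8 RPKM in WT and to 58.9 to 61.6 in psh1 cac2.

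Of the 6366 features, 385 (6.05%) passed an adjusted p of 0.05 between psh1 cac2 and WT, 246 higher (3.86%) and 139 lower (2.18%) in the double mutant. The test was limma on log2(RPKM + 1) across all 8 libraries, with Benjamini-Hochberg adjustment over the 6366 features, and every fold change below is on that scale, which understates the change of low features. Scaling by the plain read total in place of the authors' library size gave 179 higher and 478 lower. With psh1 cac2 replicate 2 left out, the test passed 7 higher and 6 lower, without psh1 cac2 replicate 1 it passed 88 and 41, without WT replicate 1 127 and 53, and without WT replicate 2 144 and 95. The counts of the gene groups below also moved with these libraries, and most are also given without the libraries that moved them. The p-values measure the spread between duplicate cultures. In 55.2% of all features the 2 double mutant values lay wholly above or below the 2 WT values, as they did in each of the 385.

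Most changes were small. The median size of the log2 change was 0.114 over all features and 0.492 among the 385, and 18 (0.283%) changed at least 2-fold, 8 upward and 10 downward. Of the 246 higher features, 80 were reading frames of Ty retrotransposons. Of the 139 lower features, 36 were structural RNAs, chiefly small nucleolar RNAs (snoRNAs). The share that passed was 5.018% of features between 1 and 10 RPKM, 4.236% between 10 and 100, 10.92% between 100 and 1000 and 41.12% of the 107 features at 1000 RPKM or more. Of these 107, 36 rose and 8 fell. The median level of the Ty1 frames was 592 to 1420 RPKM over the 8 libraries, so Ty copies may make up part of this share. Their part in it was not counted.

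**Figure D1:**
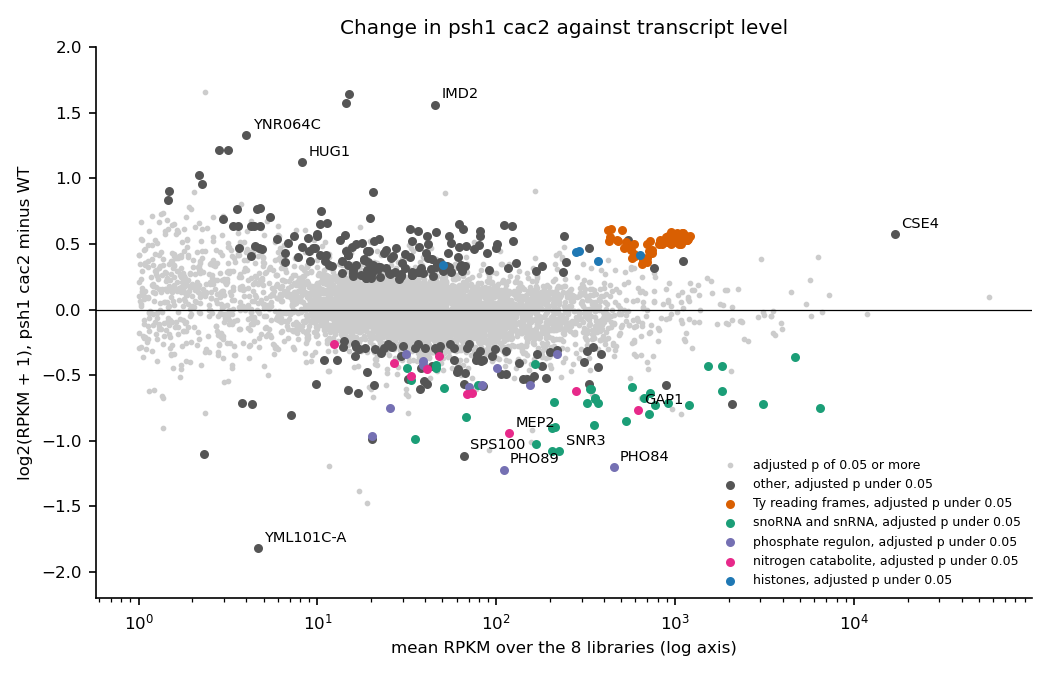
The log2 change of psh1 cac2 over WT on log2(RPKM + 1), vertical axis, is plotted against the mean RPKM of each of the 6366 features, horizontal log axis, with the 385 that passed the test drawn larger and coloured by gene group. The vertical axis stops short of PSH1 and CAC2, which lie below it. The points past the test are found at every level, with the Ty frames forming a dense group above 0 at high RPKM.

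Small nucleolar RNAs guide chemical changes of ribosomal RNA. Those of the H/ACA type direct pseudouridylation and end 3 bases after an ACA, and those of the C/D type direct ribose methylation and carry a C box near the start and a D box near the end. In psh1 cac2 the H/ACA RNAs were mostly lower: 23 of 29 fell (79.3%, against 2.18% of all features), none rose, and their median log2 change was -0.67, against -0.01 over all features. Of 47 C/D RNAs 9 fell (19.1%) and none rose, with a median of -0.25; with scaling by total reads 15 fell, without psh1 cac2 replicate 1 or WT replicate 1 2, and without psh1 cac2 replicate 2 none. The genes of 4 RNAs with large decreases are given here 5′ to 3′ (RefSeq, R64), so that the guide types can be seen. SNR3 at chrX:663749-663942 (+), SNR11 at chrXIII:652275-652532 (+) and SNR32 at chrVIII:381540-381727 (+) are H/ACA RNAs, shown with the ACA or ATA that stands 3 bases from the end in capitals. SNR63 at chrIV:323217-323471 (-) is a C/D RNA, shown with TGATGA near its start and CTGA near its end in capitals.
SNR3: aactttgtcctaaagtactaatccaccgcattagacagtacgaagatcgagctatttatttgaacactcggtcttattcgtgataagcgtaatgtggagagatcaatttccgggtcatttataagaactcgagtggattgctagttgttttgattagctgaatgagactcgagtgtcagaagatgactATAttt
SNR11: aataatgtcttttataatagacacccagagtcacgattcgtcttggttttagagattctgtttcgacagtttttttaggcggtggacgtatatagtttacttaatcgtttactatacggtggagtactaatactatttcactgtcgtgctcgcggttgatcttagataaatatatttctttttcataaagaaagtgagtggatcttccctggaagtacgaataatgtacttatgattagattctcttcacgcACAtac
SNR32: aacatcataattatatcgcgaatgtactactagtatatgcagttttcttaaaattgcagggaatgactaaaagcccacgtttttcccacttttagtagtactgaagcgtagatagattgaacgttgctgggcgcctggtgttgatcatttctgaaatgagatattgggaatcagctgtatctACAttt
SNR63: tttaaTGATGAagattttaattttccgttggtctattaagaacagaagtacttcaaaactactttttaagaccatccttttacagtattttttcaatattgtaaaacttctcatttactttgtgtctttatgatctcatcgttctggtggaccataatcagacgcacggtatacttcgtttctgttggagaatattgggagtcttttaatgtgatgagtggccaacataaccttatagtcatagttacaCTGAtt
Among all tested snoRNAs, 18 of 29 of the H/ACA type had ACA or ATA at that place in the annotated gene, and 45 of 47 of the C/D type had CTGA within the last 30 bases.

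SNR3 was at 300.4 and 269 RPKM in the WT libraries and at 137 and 131 in the double mutant, a log2 change of -1.08 ± 0.0966 (SE; adjusted p = 0.00306). SNR11 went from 273 and 236 to 119 and 119.9 RPKM and SNR32 from 225 and 198 to 99.7 and 107. In each of these RNAs both double mutant cultures were at about the same level, under both WT cultures. The groups lay apart in every feature that passed, and in 55.2% of all features. Among the C/D RNAs, SNR63 was at 665 and 589 RPKM in WT and 353 and 341 in psh1 cac2, a log2 change of -0.85 ± 0.111 (adjusted p = 0.00494). SNR17A, the more abundant of the U3 genes and needed to cut the ribosomal RNA precursor, was at 8101 and 6844 RPKM in WT and at 4412 and 4448 in the double mutant (-0.75, adjusted p = 0.00645). U3 belongs to the C/D type but is not known to guide methylation. Its second gene, SNR17B, fell by 0.67, and the copies are alike in sequence and may share reads.

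The counts differed by length within both types. Of H/ACA RNAs between 150 and 400 bases long, 23 of 26 fell, with a median of -0.69, and none of the 3 longer ones passed, SNR30 (0.04), SNR84 (0.06) and SNR86 (-0.09). Of C/D RNAs, 3 of 40 under 150 bases fell (median -0.22), against 4 of 5 between 150 and 400 bases (median -0.73) and both over 400. Median levels were higher in the longer classes of both types. For C/D RNAs they were 30.7 RPKM under 150 bases, 530 between 150 and 400 and 3556 over 400. For H/ACA RNAs they were 274 RPKM between 150 and 400 bases and 2373 in the 3 longer ones, none of which passed. The part of level, and of fragment length in the library, in these counts was not tested.

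The RNAs were also grouped by position. None of the 6 C/D RNAs encoded inside a gene on the same strand passed, as against 3 of 17 that lie within 300 bases of another snoRNA gene and 6 of 24 that stand alone. These 6 were 78 to 102 bases long, within the class under 150 bases in which 3 of 40 fell. Position and length can therefore not be told apart for them. The 2 H/ACA RNAs encoded inside genes both fell, SNR44 within RPS22B (-0.57, adjusted p = 0.00804) and SNR191 within NOG2 (-0.60, adjusted p = 0.0135). The dubious frame YGL088W overlaps SNR10, and both had a log2 change of -0.72, so their reads may be the same. Of the 25 genes for snoRNP and snoRNA maturation proteins none passed. Their median log2 change was -0.14, with 24 below 0 and 1 above. At an unadjusted p under 0.05, 6 were lower and none higher. Among those that encode the H/ACA core, CBF5, the pseudouridine synthase, was at -0.25 (adjusted p = 0.211) and GAR1 at -0.27 (adjusted p = 0.205).

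No H/ACA RNA passed in either single mutant by limma. In cac2 none of the 29 did (median -0.10, 5 at an unadjusted p under 0.05, in a comparison that called 4.26% of all features), nor in psh1 (median -0.15, 2 at an unadjusted p under 0.05, against 14.5% of all features). Set directly against cac2, 13 were lower in the double mutant, where 0.895% of all features passed and 0.503% were lower, and against psh1 22 were lower, where 23.5% of all features passed and 12.2% were lower. The departure from the sum of both single changes had a median of -0.47 over the 29, with none past the threshold and 19 at an unadjusted p under 0.05. Of the 29, 2 passed against WT without psh1 cac2 replicate 2, with a median of -0.61, and without psh1 cac2 replicate 1, 13 with a median of -0.74. Without WT replicate 1 the count was 15.

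**Figure D2:**
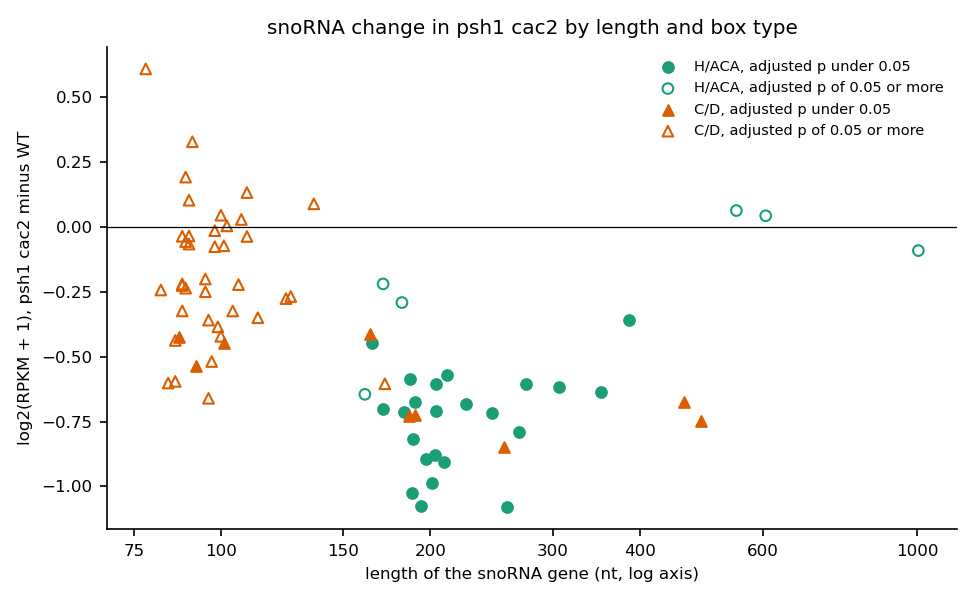
The log2 change of each snoRNA between psh1 cac2 and WT, vertical axis, is plotted against its annotated length in bases, horizontal axis, for the 29 H/ACA and the 47 C/D RNAs. H/ACA RNAs between 150 and 400 bases lie around -0.69, and C/D RNAs under 150 bases around -0.22 with a wide scatter.

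Yeast cells answer a shortage of phosphate through the transcription factor Pho4, which binds CACGTG upstream of genes that import, release or store phosphate. Of 17 genes of this regulon, 12 fell in psh1 cac2 (70.6%, against 2.18% of all features), none rose, and all 17 log2 changes were below 0, with a median of -0.44. PHO84, the high-affinity phosphate transporter, was at 634 and 609 RPKM in WT and at 264 and 276 in the double mutant, a log2 change of -1.20 ± 0.11 (adjusted p = 0.00329). PHO89, the sodium-coupled transporter, went from 128 and 138 to 56.3 and 56.8 RPKM (-1.22 ± 0.128, adjusted p = 0.00454). The duplicate cultures of the double mutant lay close together in both genes and, as in every feature that passed, apart from WT.

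The PHO84 and PHO89 promoters are shown because both carry the Pho4 letters and are the strongest decreases of the list. The windows are given on the strand of the gene (RefSeq, R64), chrXIII:26101-26400 (-), which runs from 600 to 301 bases before the start of PHO84, and chrII:798723-799022 (-), from 500 to 201 bases before the start of PHO89, with CACGTG in capitals.
PHO84: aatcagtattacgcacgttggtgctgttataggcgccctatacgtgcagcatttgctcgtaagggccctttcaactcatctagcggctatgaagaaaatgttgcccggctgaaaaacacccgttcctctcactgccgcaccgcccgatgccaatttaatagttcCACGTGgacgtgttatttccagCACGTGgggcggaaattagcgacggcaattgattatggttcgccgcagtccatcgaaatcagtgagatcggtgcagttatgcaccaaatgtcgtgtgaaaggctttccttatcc
PHO89: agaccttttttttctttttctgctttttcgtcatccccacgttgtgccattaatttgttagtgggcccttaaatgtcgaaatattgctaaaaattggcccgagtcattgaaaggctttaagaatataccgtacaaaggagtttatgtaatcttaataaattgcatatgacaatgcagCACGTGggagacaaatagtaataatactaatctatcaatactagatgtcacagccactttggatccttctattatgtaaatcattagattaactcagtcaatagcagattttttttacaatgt
CACGTG, which reads the same on both strands, began 436 and 414 bases before the PHO84 start and 323 before that of PHO89. In the 600 bases upstream it was present for 16 of the 17 genes, 12 of 12 that fell and 4 of 5 that did not pass, and for 7.228% of 5991 protein-coding genes. The 17 were listed as genes of the Pho4 regulon, so their share above that of all genes is not a result of these data. A match is a string of letters in a window and not a measured binding site.

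The other members can be ordered by role. SPL2, which restrains low-affinity transport, fell from 27.6 and 29.7 to 14.8 and 18.6 RPKM (-0.75, adjusted p = 0.0163). The subunits of the polyphosphate polymerase all fell, VTC1 by 0.34, VTC2 by 0.57, VTC3 by 0.59 and VTC4 by 0.58 on the log2 scale. PHM6, of unknown function, was at 30.8 and 24.3 RPKM in WT and 14.0 and 13.1 in psh1 cac2 (-0.96, adjusted p = 0.00755). PHO5, the secreted acid phosphatase long used to study nucleosomes on promoters, was at 121 and 126 RPKM in WT and 86.4 and 94.1 in psh1 cac2 (-0.44, adjusted p = 0.02). PHO11 and PHO12, near-identical acid phosphatase genes that may share reads, fell by 0.34 and 0.39. Among regulators, PHO81, the inhibitor of the kinase that restrains Pho4, was at 44.4 and 44.4 RPKM in WT and 32.9 and 33.1 in the double mutant (-0.42 ± 0.0569, adjusted p = 0.00549). The members that did not pass were GIT1 (-0.59, adjusted p = 0.0507), PHM8 (-0.29), PHO8, the vacuolar phosphatase (-0.18), GDE1 (-0.14) and PHO86 (-0.11). Outside the 17, PHO4 itself did not pass, at -0.12 (adjusted p = 0.42). KCS1, an inositol pyrophosphate kinase that acts in phosphate signalling, fell by 0.29 (adjusted p = 0.0395).

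The single mutants were measured against the same WT libraries. There, 2 of the 17 fell in cac2 and 6 in psh1 (1.51% and 6.9% of all features fell), with medians of -0.19 and -0.19. PHO84 was lower in the double mutant than in cac2 by 0.74 (adjusted p = 0.037) and than in psh1 by 0.80 (adjusted p = 0.00273). PHO89 was lower than in psh1 by 1.46 (adjusted p = 0.000219), and its difference from cac2 was -0.69 (adjusted p = 0.0627). Leaving out psh1 cac2 replicate 2 left 1 of the 17 past the threshold with a median of -0.51, and leaving out replicate 1 left 6 with a median of -0.41. The count was 8 without WT replicate 1 and 9 without WT replicate 2.

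Genes held down by good nitrogen sources, and turned on by GATA factors that bind GATAAG when such sources run out, also moved. Of 40 tested, 10 fell (25%, against 2.18% of all features), none rose, and the median was -0.24. The list did not move 1 way, with 33 log2 changes below 0 and 7 above. The largest increases were DCG1 (0.48, adjusted p = 0.085), DAL4 (0.42, adjusted p = 0.131) and DAL1 (0.41, adjusted p = 0.0599), none of which passed. The ammonium transporter gene MEP2 was at 171 and 140.1 RPKM in WT and 79.5 and 80.3 in psh1 cac2, a log2 change of -0.94 ± 0.15 (adjusted p = 0.0108). GAP1, the general amino acid permease, was at 729 and 751 RPKM in WT and 422 and 447 in the double mutant (-0.77 ± 0.0872, adjusted p = 0.00454). Both double mutant cultures were below both WT cultures in each gene, as in every feature that passed as lower. The WT cultures of MEP2 were the wider apart.

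Their promoters are shown for the repeated GATA letters (RefSeq, R64). The windows run from 500 to 201 bases before the start, chrXIV:356953-357252 (+) for MEP2 and chrXI:514563-514862 (+) for GAP1, with GATAAG, or CTTATC for a match on the other strand, in capitals.
MEP2: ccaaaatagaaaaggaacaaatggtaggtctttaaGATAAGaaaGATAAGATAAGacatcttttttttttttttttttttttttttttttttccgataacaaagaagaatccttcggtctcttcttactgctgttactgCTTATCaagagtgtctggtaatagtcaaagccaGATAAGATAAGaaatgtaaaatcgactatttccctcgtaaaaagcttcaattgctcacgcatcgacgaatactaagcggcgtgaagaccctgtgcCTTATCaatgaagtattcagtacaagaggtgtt
GAP1: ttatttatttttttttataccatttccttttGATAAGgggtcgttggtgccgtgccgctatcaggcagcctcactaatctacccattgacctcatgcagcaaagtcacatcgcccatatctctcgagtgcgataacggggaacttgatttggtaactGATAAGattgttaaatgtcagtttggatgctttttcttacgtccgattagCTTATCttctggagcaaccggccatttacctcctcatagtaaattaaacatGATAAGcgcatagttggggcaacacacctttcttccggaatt
The MEP2 window held 7 matches, some overlapping by shared letters, and the GAP1 window 4. In the 600 bases upstream, on either strand, GATAAG was present for 31 of the 40 genes (77.5%), 10 of 10 that fell and 21 of 30 that did not pass, and for 26.82% of all 5991 genes. The 40 were listed as genes under GATA factors, so this share too is not a result of these data.

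Other ammonium transporters fell with MEP2, MEP3 from 82.0 and 79.5 to 54.9 and 47.7 RPKM (-0.65, adjusted p = 0.00473) and MEP1 by 0.45 (adjusted p = 0.0167). The amino acid permease gene AGP1 was at 330.4 and 301 RPKM in WT and at 211 and 199 in psh1 cac2 (-0.62, adjusted p = 0.0167). Enzymes of nitrogen use that fell were GDH3, a glutamate dehydrogenase (-0.63), PUT1, the proline oxidase (-0.51), and the urea amidolyase DUR1,2 (-0.41). DUR3, which imports urea, and the peptide transporter gene OPT2 fell by 0.27 and 0.35. GDH1, the main glutamate dehydrogenase, had a log2 change of -0.52 that missed the threshold (adjusted p = 0.082). In cac2 2 of the 40 fell, against 1.51% of all features. In psh1 3 fell and 2 rose, near the 6.9% and 7.65% of all features. Without psh1 cac2 replicate 2 none of the 40 passed, at a median of -0.24, and without replicate 1 2 fell, at -0.23. The count was 3 without WT replicate 1, 5 without WT replicate 2 and 20 with scaling by total reads.

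**Figure D3:**
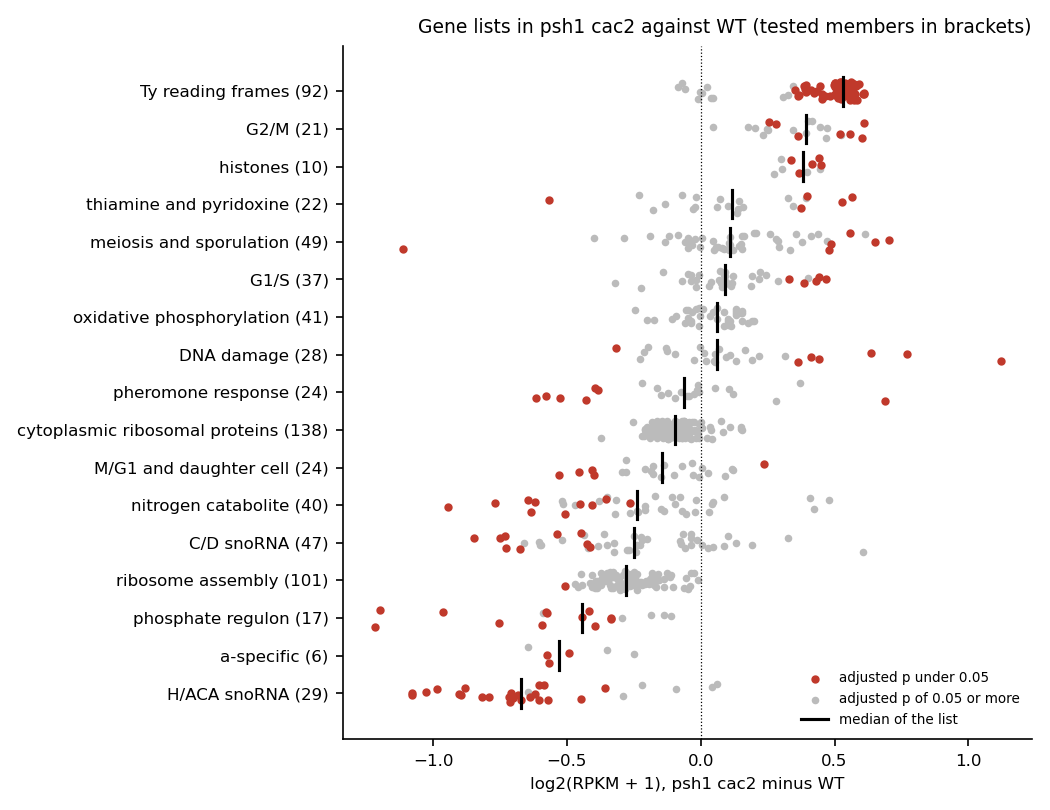
Each row is a gene list and each point the log2 change of a tested member between psh1 cac2 and WT, horizontal axis, with members past the test in red and a black bar at the median. Phosphate, H/ACA snoRNA and a-specific lists lie to the left of 0, and Ty frames, G2/M genes and histones to the right.

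Histone genes stood higher in the double mutant. Of 10 tested, 5 rose (50.0%, against 3.86% of all features), none fell, and all 10 log2 changes were above 0, with a median of 0.38. HTA1, for histone H2A, was at 229 and 238 RPKM in WT and 316 and 318 in psh1 cac2 (0.44 ± 0.0626, adjusted p = 0.00627). HHT2, for histone H3, was at 547 and 551 RPKM in WT and 754 and 713 in psh1 cac2 (0.42, adjusted p = 0.0138). HHF2, for histone H4, was at 243 and 235 RPKM in WT and 356 and 299 in psh1 cac2 (0.45, adjusted p = 0.036). The double mutant cultures were above WT in all of these, as in every feature that passed as higher, but in HHF2 they were far apart. HTB1 and the linker histone gene HHO1 rose by 0.37 and 0.34. HTA2, HTB2, HHF1, HHT1 and HTZ1 did not pass, with log2 changes of 0.40, 0.44, 0.30, 0.27 and 0.30. Histone messages of a kind come from near-identical gene pairs, so reads may be shared within a pair. In psh1 all 10 rose, against 7.65% of all features, with a median of 0.48, and in cac2 none passed, 1 at an unadjusted p under 0.05, with a median of 0.0089. Set against psh1 directly, 3 of the 10 were lower in the double mutant, where 12.2% of all features were. With psh1 cac2 replicate 1 or replicate 2 left out, none of the 10 passed against WT, without WT replicate 1 1 rose, and 3 rose without WT replicate 2 or without the Ty frames in the fit.

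Among cell cycle genes, the G2/M group moved one way. Of 21 genes whose messages peak at this stage, 7 rose (33.3%, against 3.86% of all features), none fell, and all 21 log2 changes were above 0, with a median of 0.39. KIN3, a mitotic kinase gene, was at 25.2 and 27.7 RPKM in WT and 43.2 and 38.7 in psh1 cac2 (0.61 ± 0.129, adjusted p = 0.0336). SPO12, which acts in the exit from mitosis, was at 27.5 and 27.6 RPKM in WT and 41.1 and 38.8 in psh1 cac2 (0.52 ± 0.0657, adjusted p = 0.00454). Others that rose were ALK1 (0.60), HST3, a deacetylase of histone H3 (0.56), NDD1 (0.28) and CDC20, the activator of the anaphase-promoting complex (0.25). The cyclin genes CLB1 and CLB2 did not pass, at 0.40 (adjusted p = 0.245) and 0.42 (adjusted p = 0.179), nor did SWI5 at 0.47 (adjusted p = 0.0544) and CDC5 at 0.47 (adjusted p = 0.056). In bulk cultures, a larger share of cells at one stage and more RNA per cell cannot be told apart. In psh1 14 of the 21 rose, against 7.65% of all features, with a median of 0.39, and in cac2 none passed, 2 at an unadjusted p under 0.05. None of the 21 passed between the double mutant and either single mutant, where 18 were above cac2 and 4 below psh1 at an unadjusted p under 0.05. Without psh1 cac2 replicate 2 none passed against WT and without replicate 1 or WT replicate 1 1 did, with medians of 0.46, 0.32 and 0.29. The count was 2 without WT replicate 2, 2 with scaling by total reads and 3 without the Ty frames.

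Other stages moved less. Of 37 G1/S genes 5 rose (13.5%, against 3.86% of all features) and none fell, at a median of 0.09, namely GIC1 (0.47), DUN1 (0.44), TOS6 (0.43), the replication protein A subunit RFA3 (0.38) and the repressor YOX1 (0.33). Leaving out either psh1 cac2 replicate left none past the threshold, leaving out either WT replicate 1, and scaling by total reads gave 3 higher and 2 lower. Against cac2 6 of the 37 were higher in the double mutant, where 0.393% of all features were, and against psh1 11 were lower, where 12.2% of all features were. Of 24 M/G1 genes 4 fell (16.7%, against 2.18% of all features) and 1 rose, with a median of -0.14. The 4 act in the separation of daughter from mother cells. DSE2, a wall-degrading enzyme, was at 153 and 167 RPKM in WT and 111 and 109.7 in psh1 cac2 (-0.53 ± 0.0698, adjusted p = 0.00494), SCW11 fell by 0.46, DSE1 by 0.41, and the chitinase gene CTS1 by 0.40. The M/G1 gene that rose was MCM2, a subunit of the replicative helicase (0.24). None of the 24 passed when psh1 cac2 replicate 2 was left out, 1 fell without replicate 1, 2 without WT replicate 2, and 7 with scaling by total reads.

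Of 28 genes of the DNA damage response, 6 rose (21.4%, against 3.86% of all features) and 1 fell (3.57%, against 2.18%), and the list as a whole lay near 0 (median 0.06, or -0.01 with scaling by total reads). HUG1 on chromosome XIII at 158760 to 158966, a small inhibitor of ribonucleotide reductase that is strongly induced by replication stress, was at 5.55 and 5.35 RPKM in WT and 14.4 and 11.8 in psh1 cac2, a log2 change of 1.12 ± 0.131 (adjusted p = 0.00454). RNR3, the damage-inducible large subunit of ribonucleotide reductase, was at 9.32 and 9.77 RPKM in WT and 13.01 and 13.06 in psh1 cac2 (0.41, adjusted p = 0.00683). DUN1, the checkpoint kinase that acts upstream of it, was at 15.8 and 16.9 RPKM in WT and 23.0 and 22.3 in psh1 cac2 (0.44, adjusted p = 0.0323). In these 3 genes both double mutant cultures were above both WT cultures, as in every feature that passed as higher. DDI2 and DDI3, induced by DNA-damaging chemicals, rose by 0.77 and 0.64. Their coding sequences are 99.85% identical, so reads may be split between them. DIN7, a mitochondrial nuclease gene, rose by 0.36 (adjusted p = 0.0463), and RAD16, of nucleotide excision repair, fell by 0.32 (adjusted p = 0.0135). The other reductase genes did not pass, RNR1 at -0.22, RNR2 at -0.23 and RNR4 at -0.09. HUG1 was higher in psh1 than in WT by 0.66 (adjusted p = 0.0184) and stood at -0.09 in cac2 (adjusted p = 0.715). In the double mutant it was above cac2 by 1.21 (adjusted p = 0.0199) and above psh1 by 0.46 (adjusted p = 0.0395). Without psh1 cac2 replicate 1 or 2, 1 of the 28 rose, and without either WT replicate 2 did.

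Some messages for mating fell. Of 6 a-specific genes 3 fell (50.0%, against 2.18% of all features) and none rose, with a median of -0.53. STE2, the receptor for alpha factor, was at 421 and 396 RPKM in WT and 267 and 283 in psh1 cac2 (-0.57 ± 0.0793, adjusted p = 0.00604). The pheromone gene MFA2 was at 1164 and 1088 RPKM in WT and 723 and 790.2 in psh1 cac2 (-0.57, adjusted p = 0.0148), and STE6, the exporter of a-factor, fell by 0.49. MFA1 and AGA2 did not pass, at -0.64 (adjusted p = 0.0856) and -0.35 (adjusted p = 0.0764). Of 24 genes of the pheromone response, 6 fell (25%) and 1 rose (4.17%, against 3.86% of all features). GPA1, the G protein subunit behind the receptor, was at 103 and 98.7 RPKM in WT and 67.1 and 66.9 in the double mutant (-0.58, adjusted p = 0.00454), and FAR1, which arrests the cycle in response to pheromone, went from 174 and 174 to 121 and 119 RPKM (-0.53, adjusted p = 0.02). AGA1, the agglutinin anchor, SST2, which ends the signal, the kinase gene FUS3 and the fusion gene FUS1 fell by 0.61, 0.43, 0.39 and 0.38. PRM2, which acts in nuclear fusion, rose from 2.15 and 1.67 to 3.89 and 3.48 RPKM (0.69, adjusted p = 0.0301). STE12, the transcription factor of the pathway, did not pass at -0.22 (adjusted p = 0.0983). In cac2 4 of the 6 a-specific genes and 6 of the 24 response genes fell, against 1.51% of all features. In psh1 none of the a-specific genes passed, but 5 were lower at an unadjusted p under 0.05, with a median of -0.24. Of the response genes 2 fell in psh1, against 6.9% of all features. No gene of either list passed between the double mutant and cac2, where 1 a-specific and 4 response genes were at an unadjusted p under 0.05. With psh1 cac2 replicate 2 left out, no gene of either list passed against WT, without replicate 1 1 and 2 fell, and without WT replicate 1 2 and 2 fell.

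**Figure D4:**
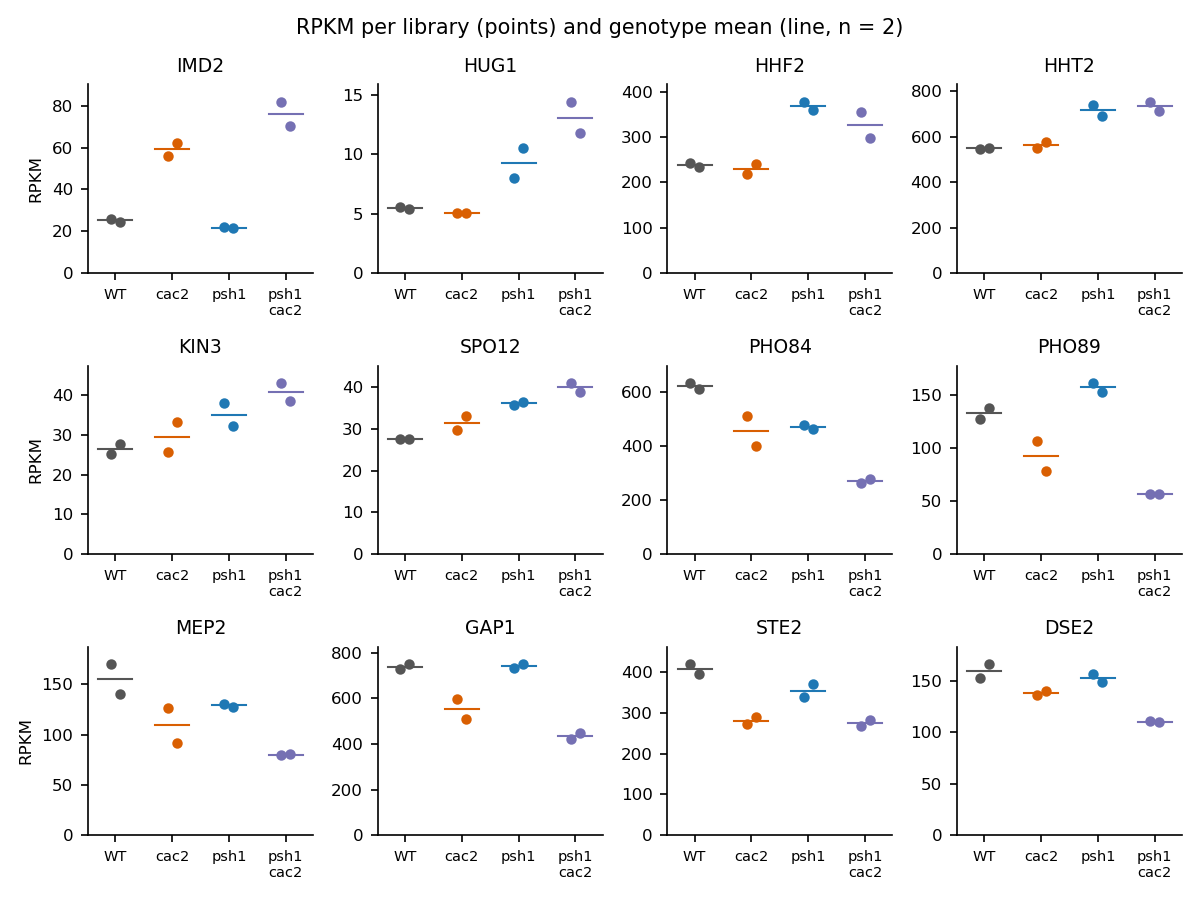
RPKM in each of the 8 libraries, vertical axis, is shown for 12 genes by genotype, horizontal axis, with points for libraries and lines for means of 2. The double mutant libraries are the highest for IMD2 and HUG1 and the lowest for PHO84, PHO89, MEP2 and GAP1, and HHF2, HHT2, KIN3 and SPO12 stand above WT in psh1 and in the double mutant.

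Ty elements are retrotransposons that move through an RNA copy, and Ty1 and Ty2 are the common families. Of 92 Ty reading frames 80 rose (87.0%, against 3.86% of all features) and none fell. They were 59 of 61 Ty1 frames (median 0.55), 20 of 20 Ty2 frames (median 0.46) and 1 of 3 frames with no annotated element, and no frame of Ty3 (3 tested, median 0.03) or Ty4 (5 tested, median -0.01) passed. The median Ty1 level was 838 and 794 RPKM in the WT libraries and 1166 and 1240 in the double mutant. The cac2 libraries were higher still, at 1420 and 1392, where all 61 passed against WT (2.75% of all features rose in cac2), and the psh1 libraries lowest, at 623 and 592. None of the 61 Ty1 frames passed between the double mutant and cac2 by limma (median -0.23, 61 at an unadjusted p under 0.05). All 61 were higher than in psh1 (median 0.97), where 11.2% of all features were. Copies of a family are nearly the same in sequence, so the frames are not separate measurements and their count is not 80 separate events. Without psh1 cac2 replicate 2 none of the 92 passed, at a median of 0.51, and without replicate 1 61 did. The count was 79 without WT replicate 1 and 68 without WT replicate 2. With the Ty frames left out of the fit, 119 features rose and 108 fell.

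IMD2 on chromosome VIII at 554396 to 555967, which encodes the enzyme that commits purines to guanine nucleotides, was among the largest increases. It was at 25.9 and 24.4 RPKM in WT and 82.0 and 70.6 in psh1 cac2, a log2 change of 1.56 ± 0.0858 (adjusted p = 0.00017). Both double mutant cultures were far above WT, and the groups lay apart in every feature that passed. Of the 4 genes of GMP synthesis it alone passed, and its relatives IMD3 and IMD4 were at -0.25 (adjusted p = 0.206) and -0.20 (adjusted p = 0.281). IMD2 was higher than WT in cac2 too, by 1.20 (adjusted p = 0.000546). The double mutant was above psh1 by 1.76 (adjusted p = 9.63e-05) and its difference from cac2 was 0.36 (adjusted p = 0.0824). PDR11, a sterol uptake transporter gene, was at 7.97 and 7.71 RPKM in WT and 13.7 and 14.0 in the double mutant (0.75, adjusted p = 0.00247), with a change of 0.75 in cac2.

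Features beside CAC2 on chromosome XIII changed too. YML100W-A, a dubious frame, was at 1.28 and 1.51 RPKM in WT and 4.51 and 4.60 in psh1 cac2 (1.21, adjusted p = 0.00454), and CUE4, which encodes a protein with a ubiquitin-binding domain, went from 24.5 and 30.2 to 12.9 and 13.7 RPKM (-0.98, adjusted p = 0.00454). CUE4 was lower in cac2 as well, by 1.27 (adjusted p = 0.000546). The alteration of the CAC2 locus itself is not described in the labels, so its effect on these neighbours and an effect of the missing protein cannot be told apart.

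**Figure D5:**
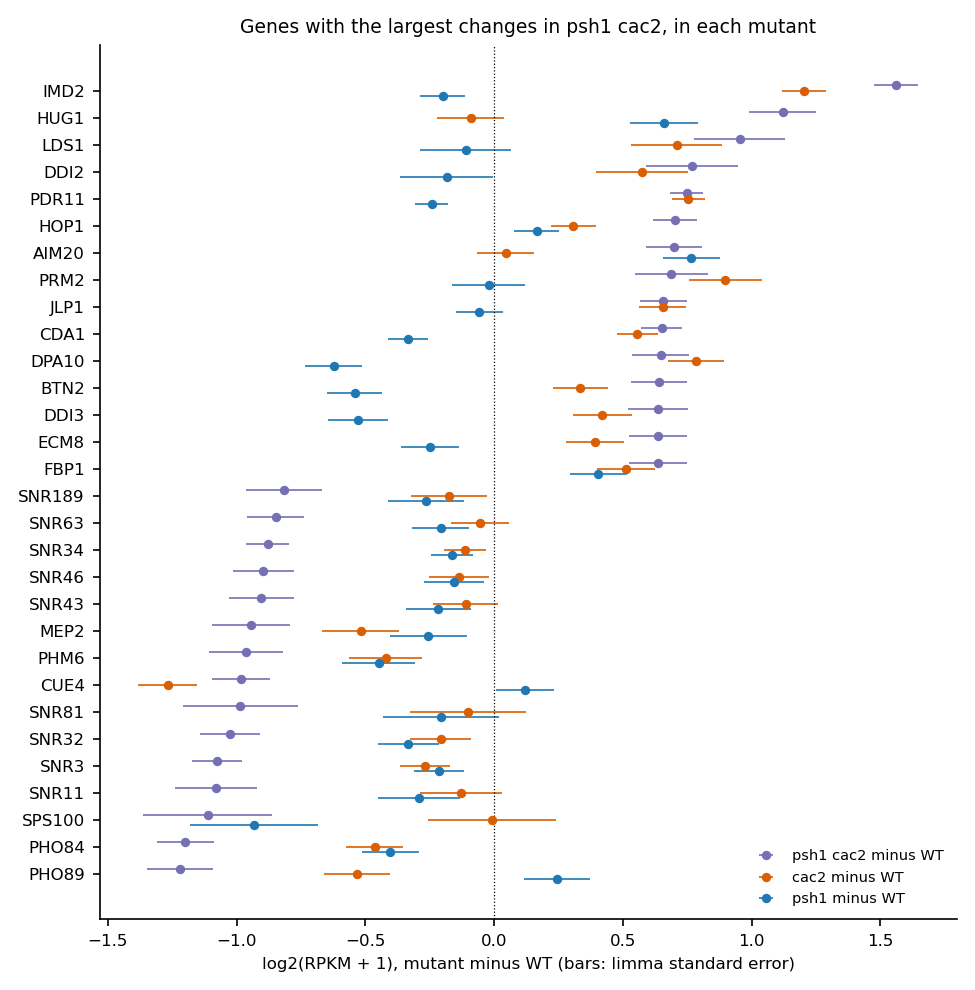
Log2 changes against WT, horizontal axis, with limma standard errors as bars, are shown for the 15 higher and the 15 lower genes with a symbol and the largest change in psh1 cac2, beside their changes in cac2 and psh1. All 3 sets of changes share the WT libraries. HUG1, PHO84 and several snoRNAs lie farther from 0 in the double mutant than in either single mutant.

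How far these genes differed from each single mutant was tested directly. Of 37 genes, those with the largest changes together with CSE4, PSH1, CAC2 and the leading features without a symbol, 11 differed between psh1 cac2 and cac2 (0.895% of all features did) and 33 between psh1 cac2 and psh1 (23.5% of all features did). In 9 of the 37 both differences passed, HUG1, PHO84 and the snoRNAs SNR3, SNR11, SNR32, SNR34, SNR43, SNR46 and SNR63. Most of the 37 were picked by their change against WT in the same psh1 cac2 libraries, and PSH1 and CAC2 are the mutated genes. Counts above the share of all features may therefore follow in part from that choice. SNR11 was below cac2 by 0.95 (adjusted p = 0.0485) and below psh1 by 0.79 (adjusted p = 0.0128). Leaving out 1 library in turn, between 1 and 8 of the 37 differed from cac2. None of the 37 departed from the sum of the single mutant changes at the threshold, as 1 of 6366 features did (0.0157%).

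Genes of meiosis and sporulation, which vegetative cells keep nearly silent, gave 5 increases (10.2%, against 3.86% of all features) and 1 decrease (2.04%, against 2.18%) among 49 tested. HOP1, of the meiotic chromosome axis, was at 4.27 and 4.03 RPKM in WT and 7.17 and 7.57 in the double mutant (0.70 ± 0.0871, adjusted p = 0.00454). CDA1, a chitin deacetylase of the spore wall, SPO1, the septin gene SPR28 and NDJ1, of meiotic telomeres, rose by 0.65, 0.56, 0.49 and 0.48. SPS100, of the spore wall, was at 91.6 and 84.3 RPKM in WT and 31.4 and 51.1 in psh1 cac2, with the double mutant cultures far apart (-1.11, adjusted p = 0.0416). Without psh1 cac2 replicate 2 none of the 49 passed, and without replicate 1 or WT replicate 1 3 rose.

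Metabolic lists held few features past the threshold each, to be read against 3.86% higher and 2.18% lower over all features. Of 22 genes of thiamine and pyridoxine synthesis 4 rose (18.2%), THI12 (0.57), THI5 (0.53), THI13 (0.37) and THI4 (0.40), and 1 fell, the thiamine transporter gene THI7, from 91.2 and 76.8 to 55.2 and 57.1 RPKM (-0.57, adjusted p = 0.0151). THI5, THI12 and THI13 are 97.75% to 99.32% identical and may share reads. Of the 22, 1 rose without psh1 cac2 replicate 1, none passed without replicate 2, and 2 rose without either WT replicate. Of 11 genes of fatty acid synthesis 2 fell, both subunits of the fatty acid synthase, FAS1 by 0.44 and FAS2 by 0.34. Of 26 ergosterol genes 1 rose (3.85%) and 3 fell (11.5%). Of 21 genes of drug resistance 3 rose (14.3%) and 1 fell (4.76%), and of 27 heat shock genes 3 rose (11.1%) and 1 fell (3.70%). The ergosterol genes were ERG2 (0.33) upward and ERG1 (-0.32), the target of terbinafine, ERG5 (-0.34) and ERG11 (-0.29), the target of azole drugs, downward. Among the heat shock genes, BTN2, which gathers misfolded proteins, rose by 0.64 (adjusted p = 0.0132), and stood at -0.54 in psh1. Leaving out either psh1 cac2 replicate or WT replicate 1 left PDR11 as the one gene of these 4 lists past the threshold.

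Products of the kinetochore genes bind the chromatin that Cse4 marks. Of 47 tested 3 rose (6.38%, against 3.86% of all features) and 1 fell (2.13%, against 2.18%). Those that rose were NUF2 (0.39), SPC19 (0.34) and OKP1 (0.28), and CTF19 fell from 23.0 and 20.1 to 15.4 and 14.9 RPKM (-0.48, adjusted p = 0.0481). OKP1 and CTF19 encode partners in the same complex. None of the 47 passed without psh1 cac2 replicate 1 or 2 or WT replicate 1. The tubulin genes TUB1, TUB2 and TUB3 rose by 0.43, 0.36 and 0.33, chosen after their values were seen. Of 100 features within 5 kb of a centromere 4 rose and 1 fell, and of 222 within 20 kb of a chromosome end 13 rose and 3 fell (5.86% and 1.35%, against 3.86% and 2.18% of all features). Near the ends the counts were 1 and 0 without psh1 cac2 replicate 2, 4 and 1 without replicate 1, 7 and 2 without WT replicate 1, and 10 and 6 with scaling by total reads. Near centromeres none passed without either psh1 cac2 replicate, 1 rose without WT replicate 1, 2 rose and 1 fell without WT replicate 2, and 4 rose and 9 fell with scaling by total reads.

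CSE4 was at 16624 and 14586 RPKM in WT and 23546 and 22798 in psh1 cac2 (0.57 ± 0.0803, adjusted p = 0.00604). The double mutant exceeded psh1 by 1.23 (adjusted p = 9.87e-05) and differed from cac2 by 0.29 (adjusted p = 0.102). The CSE4 change against WT ran from 0.48 to 0.67 with 1 WT or psh1 cac2 library left out, and was 0.0 with quantile normalization. That scaling gives the same value to the same rank in every library, so it cannot show a change in a feature that keeps its rank. The labels do not describe the construct that overproduces Cse4, so its share of these reads is not known. Of 13 genes of the galactose regulon 1 rose and 1 fell (7.69% each, against 3.86% and 2.18% of all features), with a median of -0.08. They were GAL4, the activator of the regulon (0.47, adjusted p = 0.0106), and the uracil permease gene FUR4 (-0.54, adjusted p = 0.0114). Neither passed without psh1 cac2 replicate 2 or WT replicate 1, and GAL4 did not without replicate 1 or WT replicate 2. GAL1 and GAL10, enzymes of galactose use, were at 0.02 (adjusted p = 0.936) and -0.11 (adjusted p = 0.462).

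Many housekeeping lists held no feature past the threshold by limma, namely the 138 cytoplasmic ribosomal proteins, 41 genes of oxidative phosphorylation, 35 of the proteasome, 27 of the iron regulon and 55 of amino acid synthesis. At an unadjusted p under 0.05 these lists held 2, 3, 1, 3 and 7. For ribosomal proteins the median was -0.10, and it was 0.03 without WT replicate 1. Of 101 genes of ribosome assembly 1 fell, yet all 101 log2 changes were below 0, with a median of -0.28. At an unadjusted p under 0.05, 55 of the 101 were lower and none higher. The WT cultures themselves lay at 0.15 and -0.15 around their mean for this list, and the double mutant cultures at -0.19 and -0.36. The one past the threshold was the helicase gene DBP2 (-0.51, adjusted p = 0.0236). With scaling by total reads 14 of the 101 fell, and without WT replicate 2 9 did.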

How the data were processed

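The authors deposited 1 table of RPKM for 7126 features. According to the submitters' processing notes the tools were bcl2fastq 2.18, TopHat2 2.0.13 and edgeR 3.14.0 and the build was sacCer3, with no role given for each. How reads were counted, and with which strand setting and annotation, is not given in the sources used here, so reads of overlapping or antisense features may not be separated, and those of near-identical copies may be split. Values lay on whole-read steps in 99.808% of cases (tolerance 0.01 reads), which gave the reads per library. No count test was run on them. Features were matched to RefSeq R64, whose browser name is sacCer3.

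Values were tested as log2(RPKM + 1), with a pseudocount of 1 and a mean of at least 1 RPKM over the 8 libraries, using limma 3.58.1 (R 4.3.3) with a trend of the variance on intensity. Genotype was the only term and all 8 libraries entered, which left 4 residual and gave 3.85 prior degrees of freedom. Two-sided p-values were adjusted by Benjamini-Hochberg over 6366 features per comparison. Members and gene lists were chosen with earlier results of these data known. Named genes are CSE4, PSH1 and CAC2, the 15 higher and 15 lower genes with a symbol and the largest change past the threshold, 2 each way without a symbol, and up to 4 per list. Other members of lists, the uncalled regulators and the galactose genes were named after their values were seen. Motifs were counted as exact letters on both strands of the 600 bases upstream of coding starts. Alternatives were other pseudocounts, filters, scalings, libraries left out, no intensity trend and a replicate term.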

Additional observations from a re-analysis of the deposited data

Results flagged for a closer look

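The isoleucine transfer RNA feature tI(UAU)D was the 1 feature of 6366 (0.0157%) with a test past the threshold for the double mutant against both single changes added together, an interaction of 3.365 on the log2 scale (adjusted p = 0.000318, limma). The WT libraries had 13.7 and 13.4 RPKM. The cac2 libraries were far lower, at 2.22 and 3.01, the psh1 libraries had 6.79 and 7.13, and the double mutant was highest with 17.7 and 21.0. Its log2 change from WT to the double mutant was 0.48 (adjusted p = 0.0574). These values rest on few reads, 9 and 13 in cac2 against 78 and 94 in the double mutant, at the smallest length that made all values whole.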

How the results depend on the processing

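The count of 385 features (246 higher, 139 lower) became 657 (179 and 478) with scaling by total reads, 231 (142 and 89) with the 4 libraries of psh1 cac2 and WT alone, and 227 (119 and 108) without the Ty frames. Leaving out 1 of the 8 libraries at a time gave 13 to 373 features, 7 to 241 higher and 6 to 132 lower, and leaving out a WT or psh1 cac2 library 13 to 239, with the lone library of that group assumed to vary like the others. The 13 that passed without psh1 cac2 replicate 2 were PSH1, CAC2, IMD2, YAR073W, YAR075W, YNR064C, HUG1, TAH1, PDR11, SNR3, SNR34, PHO84 and YML101C-A. Same-numbered libraries deviated from their group means with correlations of 0.038 to 0.443 over the 6 pairs of groups, 0.335 for psh1 cac2 with WT. Since 2 of the 6 were near 0 and the labels name no shared batch, the numbers were not taken as pairs. A fit with the replicate number as a block passed 984 features, 455 higher and 529 lower, which held all 385. Of 37 named genes, 11 differed from cac2, against 20 with the replicate block, 4 with no filter on low values, 4 without the intensity trend and 1 to 8 without 1 library. Against psh1, 33 differed and the count stayed between 24 and 33. Pseudocounts of 0.25 and 4, filters at 0 and 5 RPKM, median-of-ratios and quantile scaling and no trend kept the counts within 1.5 times. Of 130 named genes past the threshold (122 with a filter at 5 RPKM and 125 without the Ty frames) none changed sign in these alternatives, and 119 no longer passed without psh1 cac2 replicate 2. GAL1, at 0.0179 and not past the threshold, was at -0.0602 with scaling by total reads and at -0.055 without WT replicate 1, and ran from -0.0699 to 0.106 over the libraries left out. The causes were not tested.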
